A study of Caenorhabditis elegans with 8 samples.

Results

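The enzymes of glycolysis, gluconeogenesis, the glyoxylate shunt and the citric acid cycle were followed in whole wild-type (N2) Caenorhabditis elegans. The 35 genes were chosen by name as central carbon metabolism genes, in the order of the reactions, and all 35 were found among the 47087 loci of the expression table. The study sequenced poly(A)-selected RNA from 8 libraries. Of these, 4 came from worms kept in constant darkness (NL) and 4 from worms given cycles of 12 h of light at 8000 lux and 12 h of darkness (DL), all at 20 °C after 40 h of culture from synchronized larvae. The labels name 4 batches, with 1 NL and 1 DL library in each, and no transgene or mutation. They give neither the number of light cycles nor whether libraries stem from separate cultures, so p-values reflect the scatter of these 8 libraries, and that scatter may be technical. Values are FPKM, read counts scaled by gene length and library total, and "NL 1" or "DL 3" names a library by its group and replicate.

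Glycolysis splits glucose into pyruvate in the cytosol, and the pyruvate dehydrogenase complex turns pyruvate into acetyl-CoA for the citric acid cycle of the mitochondria. Gluconeogenesis runs most of these steps backwards and uses its own enzymes, fructose bisphosphatase and phosphoenolpyruvate carboxykinase, where glycolysis is irreversible. Nematodes, unlike mammals, also have a glyoxylate shunt, which skips the steps of the cycle that release carbon dioxide and so lets fat be turned into sugar. In C. elegans both of its activities, isocitrate lyase and malate synthase, lie in 1 protein, encoded by icl-1.

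Libraries within a group differed from one another, which bears on every comparison below. The libraries held 18628030 to 20394371 reads recovered from the steps between low FPKM values. Summed FPKM of 9 sperm markers ran from 4.09 to 24.8 in NL 1, NL 2 and NL 4, stood at 212 in NL 3, and ran from 199 to 752 in DL. Summed FPKM of 3 adult markers (vit-2, vit-6 and col-19) was 160.2 in NL 3 and 354 in DL 2, and between 0.087 and 8.96 in the other 6 libraries, although the labels give young adulthood to all. Summed FPKM of 5 muscle markers ran from 1276 to 2308 in NL and from 1345 to 1871 in DL. That of 4 intestinal markers ran from 1422 to 1599 in NL and from 1104 to 1961 in DL, of which act-5 made up most. For 4 hypodermal markers these ranges were 693 to 1692 (NL) and 768 to 1498 (DL), and for 5 neuronal markers 312 to 388 and 254 to 351. The sperm markers msp-10, spe-11 and ssp-32 and the adult marker vit-2 were at 0 in NL 4, and msp-10 also in NL 1. Of 2 male markers, 1 lay under 1 FPKM in every library. The part of these differences in the results below was not tested, and in whole worms fewer cells of a type and less RNA per cell cannot be told apart.

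None of the 35 genes passed the test between DL and NL. Limma was run on log2(FPKM + 1) for the 14358 genes averaging at least 1 FPKM, and a gene was called when its adjusted p (Benjamini-Hochberg over these genes) was under 0.05. Limma called 101 of them, 42 higher and 59 lower in DL, or 0.703% (0.293% higher and 0.411% lower), and 0 of the 35. Over all genes the split became 41 higher and 32 lower after rescaling to 1 common FPKM sum, 67 and 149 after quantile normalization, and 44 and 106 after median centring. An unadjusted limma p under 0.05 was given for 4 of the 35, pfk-1.2 and gpd-4 in the higher direction and fbp-1 and pck-1 in the lower, where 20.6% of all tested genes had one (12.4% higher and 8.24% lower). The libraries of DL and NL did not overlap for 2 of the 35 (5.71%), fbp-1 (lower in DL) and idh-2 (higher), and for 9.24% of all tested genes (4.8% lower and 4.44% higher). The median log2 change was -0.02 over the 35 genes and 0.03 over all tested genes. Within 0.25 of 0 on the log2 scale lay 28 of the 35, against a smaller share of all tested genes (7344 of 14358). Of the 35, 25 averaged at least 100 FPKM, and these shares were not matched for level. Simulated DL and NL libraries of 14358 genes had noise drawn gene by gene and changes placed in genes above 10 FPKM. On these, limma recovered 58% of 2-fold changes and 96% of 4-fold changes. Such noise lacks the differences between libraries that many genes share, so these rates need not hold for the real libraries.

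**Figure D1:**
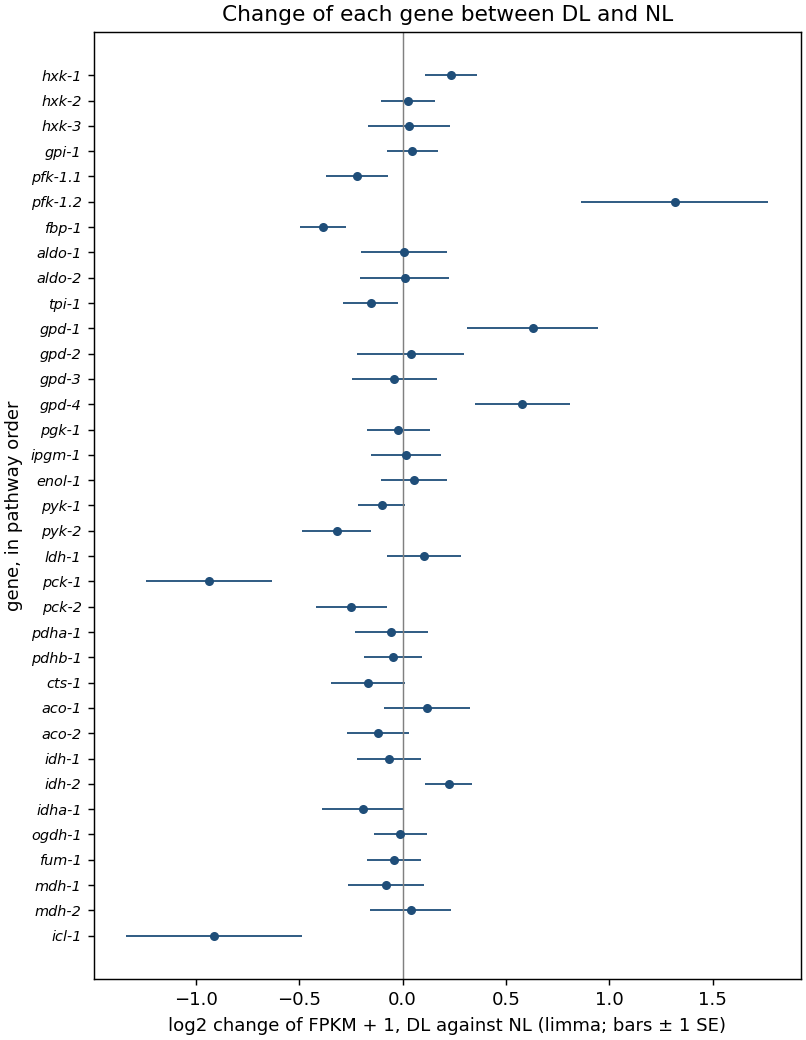
Log2 change of FPKM + 1 in DL against NL for each of the 35 genes (x axis), in pathway order (y axis), as limma estimates with bars of 1 SE. Most points lie near 0, while pck-1 (-0.94) and icl-1 (-0.91) lie to the left and pfk-1.2 (1.32), gpd-1 (0.63) and gpd-4 (0.58) to the right, with wide bars.

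Leaving out libraries changed this for 2 genes. Without NL 3, limma called pck-1 (log2 change -1.17 ± 0.28 SE, adjusted p = 0.0325) and pfk-1.2 (1.65 ± 0.41, adjusted p = 0.038), where 10.9% of all tested genes were called. Without both NL 3 and DL 2, an alternative chosen with the marker values known, limma called pfk-1.2 (1.36 ± 0.34, adjusted p = 0.0477), against 10.4% of all tested genes, and pck-1 had an adjusted p of 0.0749. The other 33 genes were called in none of the 16 alternatives run. The share of all tested genes called was 0.599% with a pseudocount of 0.1 FPKM, 0.143% with no filter on low values, 0.508% after rescaling, 1.5% after quantile normalization, 1.04% after centring, 0.174% with the batch as a block and 0.512% with limma voom. It was 0.0627% without NL 1 or without NL 2, 1.54% without NL 4, and 0.293%, 0.933%, 0.132% and 0.104% without DL 1, DL 2, DL 3 and DL 4.

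Among the genes of the glyoxylate shunt and of gluconeogenesis, icl-1, pck-1 and pck-2 were highest in NL 1 and NL 2, while fbp-1 was lower in every DL library. The shunt gene icl-1 (WBGene00001564, chromosome V, 724332 to 728004 in WBcel235) measured 1735, 2138, 583 and 618 FPKM in NL 1 to NL 4. In DL 1 to DL 4 it stood at 579, 619.8, 479 and 619 FPKM. NL 1 and NL 2 were thus the only libraries above 619.8 FPKM, while NL 3 and NL 4 lay within the range of DL. The log2 change was -0.91 ± 0.42 (SE, limma adjusted p = 0.267), and it was -0.68 without NL 1 and -0.58 without NL 2. Within the batches, log2(FPKM + 1) in DL minus that in NL was -1.58, -1.78, -0.28 and 0.0027 in batches 1 to 4.

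Phosphoenolpyruvate carboxykinase, which makes phosphoenolpyruvate from oxaloacetate at the entry to gluconeogenesis, is encoded by pck-1 (WBGene00021043, chromosome III, 62888 to 66260) and pck-2 (WBGene00011232, chromosome I, 7866136 to 7872100). The level of pck-1 was 743, 851, 341 and 439 FPKM in NL 1 to NL 4. In DL 1 to DL 4 it was 394, 249, 287 and 250.4 FPKM. NL 1 and NL 2 again stood highest, and the groups overlapped only because DL 1 lay above NL 3. The log2 change of pck-1 was -0.94 ± 0.31 (SE, limma adjusted p = 0.128), with DL lower in 4 of 4 batches (-0.91, -1.77, -0.25 and -0.81). The other gene, pck-2, measured 815, 919, 660.1 and 640.3 FPKM in NL and 689.8, 573, 608 and 663 FPKM in DL. Here NL 1 and NL 2 were also the highest libraries, but NL 3 and NL 4 lay below DL 1 and DL 4.

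The balance between these isozymes does not depend on how a library was scaled. Of their summed FPKM, pck-1 made up 47.7%, 48.1%, 34.1% and 40.7% in NL 1 to NL 4. Its share was 36.3%, 30.3%, 32.03% and 27.4% in DL 1 to DL 4. The share was lower in every DL library than in NL 1, NL 2 and NL 4, and DL 1 lay above NL 3.

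Part of the muscle markers and part of the intestinal markers moved with icl-1, pck-1 and pck-2. The summed FPKM of the 5 muscle markers was 2308 in NL 1 and 2296 in NL 2, against 1276 to 1910 in the other 6 libraries. Of the 5, unc-54, myo-3 and unc-15 were highest in NL 1 and NL 2. By contrast, tni-1 was 139 and 132 FPKM there, below NL 3 (146 FPKM) and NL 4 (188 FPKM). In DL, tni-1 ran from 88.6 to 101 FPKM, below every NL library, as for 4.8% of all tested genes. For mup-2, DL 3 (529 FPKM) lay between NL 1 (541 FPKM) and NL 2 (519 FPKM). The log2 change of tni-1 was -0.67 ± 0.14 (SE, limma adjusted p = 0.07). For unc-54, myo-3, unc-15 and mup-2 it was -0.27, -0.54, -0.41 and -0.17, with limma adjusted p-values of 0.231 to 0.795. Of the 4 intestinal markers, ges-1 was 113.5 and 106.9 FPKM in NL 1 and NL 2 and 47.9 to 70.2 FPKM in the others, and ifb-2 was 398 and 379 FPKM against 166 to 299 FPKM. Between DL and NL, the log2 change in ges-1 was -0.67 ± 0.21 (SE, limma adjusted p = 0.119) and in ifb-2 -0.55 ± 0.24 (limma adjusted p = 0.233), both with an unadjusted p under 0.05. The other intestinal markers, elt-2 and act-5, were not highest in NL 1 and NL 2, with log2 changes of -0.01 and 0.20. The part of muscle and intestinal RNA in the values of these genes was not tested.

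**Figure D2:**
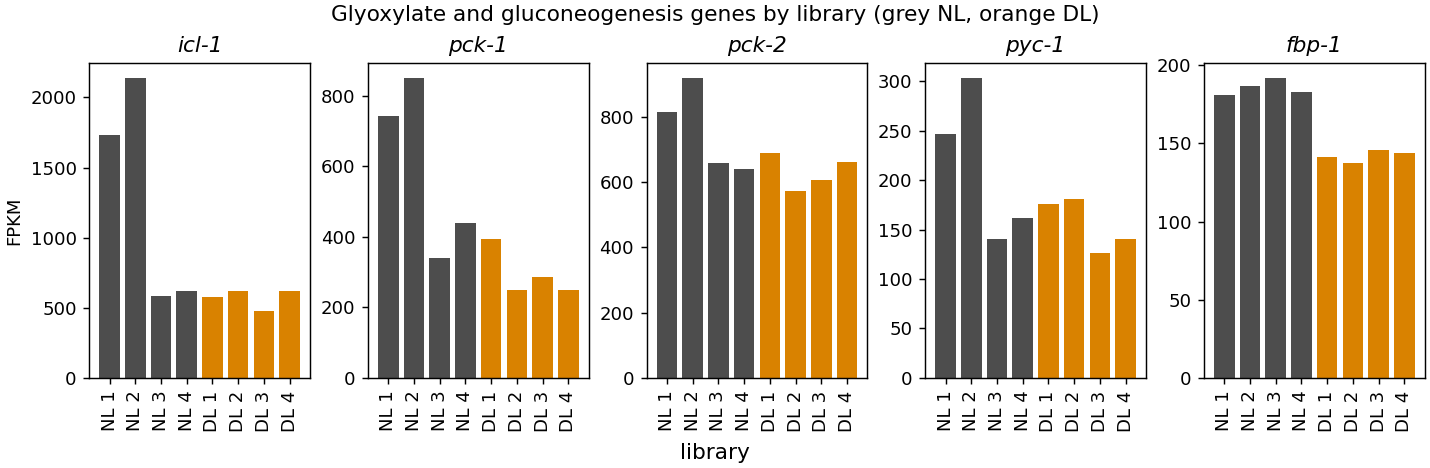
FPKM (y axes, from 0, 1 scale per gene) of icl-1, pck-1, pck-2, pyc-1 and fbp-1 in each library (x axes), with NL in grey and DL in orange. The first 4 genes are highest in NL 1 and NL 2, while all 4 NL bars of fbp-1 stand above all 4 DL bars.

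Fructose bisphosphatase, the enzyme that reverses the phosphofructokinase step, differed in another way. Its gene fbp-1 (WBGene00001404, chromosome I, 2581015 to 2586124) measured 181, 187, 192 and 183 FPKM in NL 1 to NL 4. In DL 1 to DL 4 it stood at 141, 137, 146 and 144 FPKM. Every DL library lay below every NL library, with little spread inside either group (185.6 ± 4.81 and 141.9 ± 3.66 FPKM, SD, n = 4 each). Here NL 3 and DL 2, the libraries richest in adult transcripts, lay with their own groups, and the part of stage in fbp-1 was not tested. The log2 change was -0.38 ± 0.11 (SE), and limma, which draws the spread of each gene toward that of genes of like level, gave an unadjusted p of 0.00667 and an adjusted p of 0.106. The adjusted p ran from 0.0978 to 0.275 over the 16 alternatives. Within the batches the difference was -0.35, -0.44, -0.39 and -0.35 on the log2 scale.

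The enzymes that start glycolysis were of moderate level. Hexokinase, which traps glucose in the cell as its phosphate, is encoded by hxk-1, hxk-2 and hxk-3, and their summed FPKM was 108 to 134 over the 8 libraries. Of the 3, hxk-1 measured 31.6, 29.2, 35.02 and 32.3 FPKM in NL and at 37.7, 43.2, 36.8 and 33.9 FPKM in DL. Only DL 4 lay within the NL range (log2 change 0.23 ± 0.13 SE, limma adjusted p = 0.337). The level of hxk-2 was 32.4 to 42.6 FPKM over all 8 libraries and that of hxk-3 was 37.7 to 66.3 FPKM, with NL 1 and NL 2 the highest for hxk-3. Glucose-6-phosphate isomerase, gpi-1, lay between 150.3 and 186 FPKM. Phosphofructokinase, which commits sugar to glycolysis, came mainly from pfk-1.1, at 52.2, 55.0, 41.6 and 62.2 FPKM in NL and 48.98, 40.7, 46.8 and 42.6 FPKM in DL.

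The middle and lower steps of glycolysis were more abundant and overlapped between the groups. Aldolase cuts the sugar bisphosphate into triose phosphates, and its gene aldo-2 lay between 778 and 1141 FPKM, against 204 to 376 FPKM for aldo-1. The share of aldo-2 in their sum was 73.6% to 80.3%. Triosephosphate isomerase, tpi-1, lay between 368 and 475 FPKM. Phosphoglycerate kinase, pgk-1, lay between 192 and 278 FPKM and the cofactor-independent phosphoglycerate mutase, ipgm-1, between 147 and 231 FPKM. Enolase, enol-1, ran from 694 to 954.5 FPKM. All of these had adjusted limma p-values of 0.563 or more.

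Pyruvate kinase, which makes pyruvate and ATP in the last step, is encoded by pyk-1 and pyk-2. The level of pyk-1 was 88.1 to 104.1 FPKM over all libraries. That of pyk-2 was 57.8, 55.5, 57.7 and 38.0 FPKM in NL and 44.2, 41.5, 35.1 and 44.4 FPKM in DL. For pyk-2, NL 1, NL 2 and NL 3 lay above all DL libraries and NL 4 among them (log2 change -0.32 ± 0.17 SE, limma adjusted p = 0.327). Of the pyk-2 exon bases, 11.8% overlap an antisense RNA gene, whose reads cannot be told apart, since the kit keeps no strand information. Lactate dehydrogenase, ldh-1, which turns pyruvate into lactate, lay between 118 and 145 FPKM in NL and between 101 and 169 FPKM in DL.

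**Figure D3:**
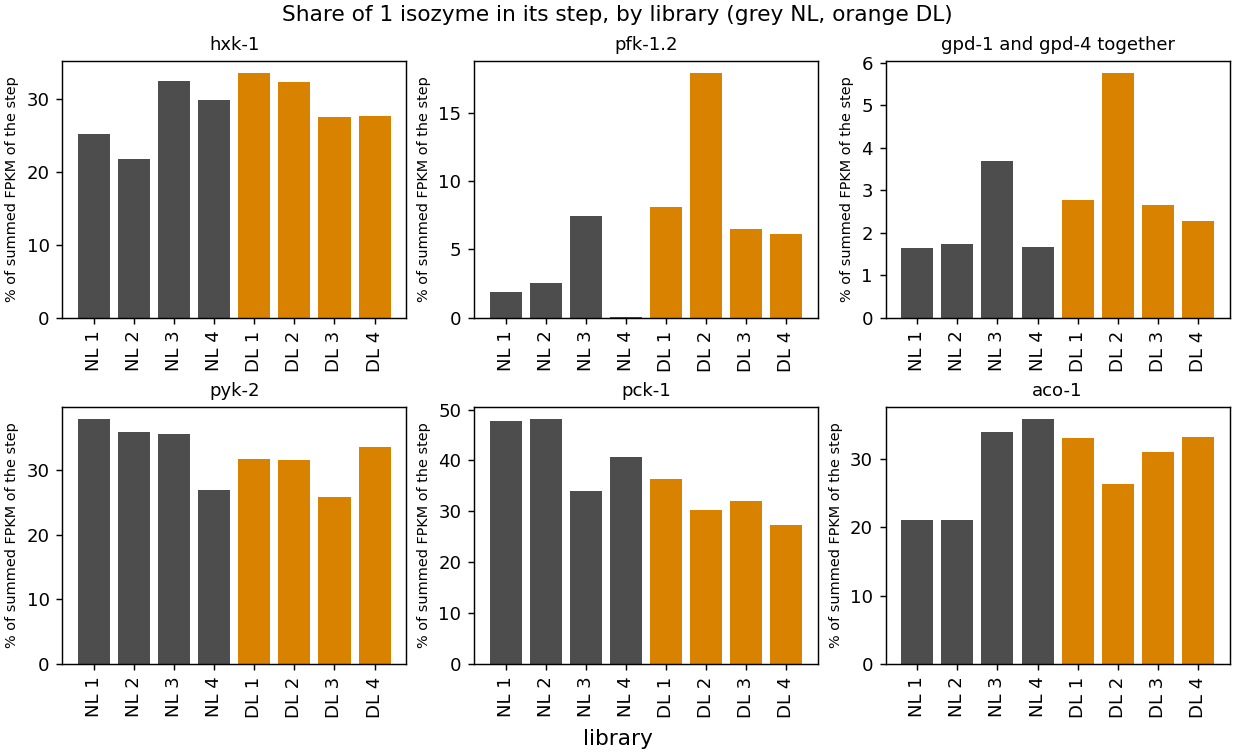
Percent of the summed FPKM of a step (y axes, from 0) that came from hxk-1, pfk-1.2, gpd-1 with gpd-4, pyk-2, pck-1 or aco-1 in each library (x axes), with NL in grey and DL in orange. The shares of pfk-1.2 and of gpd-1 with gpd-4 peak in DL 2 (17.9% and 5.75%), and that of aco-1 is lowest in NL 1 and NL 2 (21.1% each).

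Glyceraldehyde-3-phosphate dehydrogenase showed a split between its 4 genes. The pair gpd-2 and gpd-3, neighbours on chromosome X (3113443 to 3114689 and 3112091 to 3113341), supplied nearly all of the transcript, at 585 to 1080.3 FPKM and 824 to 1329 FPKM. Both were lowest in NL 3, and gpd-3 was highest in NL 1 and NL 2. The pair gpd-1 and gpd-4 on chromosome II (10394129 to 10395349 and 10171268 to 10172498) lay far lower. The genes within each pair are close copies, so the split of reads within a pair is uncertain. The level of gpd-1 was 19.6, 20.6, 31.6 and 14.03 FPKM in NL and 24.7, 58.9, 30.8 and 24.5 FPKM in DL. The level of gpd-4 was 17.9, 20.7, 22.5 and 13.7 FPKM in NL and 21.6, 39.9, 31.5 and 22.4 FPKM in DL. DL 2 was highest and NL 4 lowest for both, and the groups overlapped through NL 3.

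The log2 change was 0.63 ± 0.32 for gpd-1 (SE, limma adjusted p = 0.305) and 0.58 ± 0.23 for gpd-4 (adjusted p = 0.194). Together they made up 1.64%, 1.73%, 3.70% and 1.66% of the dehydrogenase FPKM in NL 1 to NL 4. In DL 1 to DL 4 their share was 2.78%, 5.75%, 2.65% and 2.28%. The share was lower in NL 1, NL 2 and NL 4 than in any DL library, and in NL 3 it was higher than in DL 1, DL 3 and DL 4.

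The second phosphofructokinase gene, pfk-1.2 (WBGene00008230, chromosome V, 9531801 to 9534537), was the lowest of the 35. Its values were 0.989, 1.42, 3.36 and 0.0433 FPKM in NL, in order, which is 45, 68, 161 and 2 reads. In DL 1 to DL 4 it stood at 4.32, 8.86, 3.24 and 2.78 FPKM, which is 225, 433, 143 and 133 reads. NL 4 thus lay below a floor of 3 counts, and NL 3 lay above DL 3 and DL 4. The log2 change was 1.32 ± 0.45 (SE, limma adjusted p = 0.143). It was 2.21 with a pseudocount of 0.1 FPKM in place of 1, and 2.60 with limma voom on recovered reads. Of the summed phosphofructokinase FPKM, pfk-1.2 made up 0.0695% to 7.48% in NL and 6.13% to 17.9% in DL.

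Germline markers moved with these low isozymes. Summed FPKM of the 9 sperm markers was 18.9, 24.8, 212 and 4.09 in NL, in order, against 216, 752, 249 and 199 in DL. Summed FPKM of 6 oocyte and eggshell markers was 28.7, 26.9, 64.9 and 21.6 in NL and 64.4, 202 and 64.8 in DL 1 to DL 3, with 41.2 in DL 4. DL 2 was highest and NL 4 lowest in both sums, as for pfk-1.2, gpd-1 and gpd-4, and NL 3 was the highest NL library. The part of germline RNA in the values of these 3 genes was not tested.

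**Figure D4:**
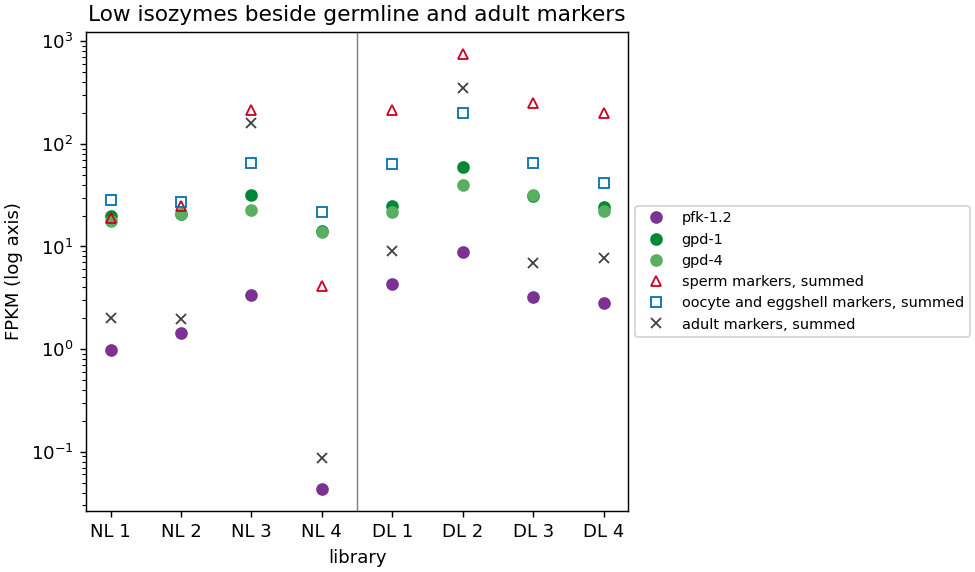
FPKM on a log axis (y) of pfk-1.2, gpd-1 and gpd-4 in each library (x), beside the summed FPKM of sperm, oocyte and eggshell, and adult markers. Each of the 3 genes and of the 3 sums is lowest in NL 4 and highest in DL 2.

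Of the 13 genes of pyruvate dehydrogenase, the citric acid cycle and the shunt, 12 had a log2 change within 0.25 of 0, the exception being icl-1, and 0 had an unadjusted limma p under 0.05. The alpha and beta subunits of the first pyruvate dehydrogenase enzyme, pdha-1 and pdhb-1, lay at 178 to 264 and 169 to 227 FPKM. Of the pdha-1 exon bases, 12.8% overlap a gene of the other strand. Citrate synthase, cts-1, which joins acetyl-CoA to oxaloacetate, had the highest mean of the 35 genes, 1181 FPKM over the 8 libraries. It measured 1352, 1399, 1107 and 1133 FPKM in NL and at 1010.4, 957, 1265 and 1225 FPKM in DL, and the groups overlapped.

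Aconitase and isocitrate dehydrogenase showed differences between isozymes. The mitochondrial aconitase aco-2 measured 509, 580.0, 428 and 444 FPKM in NL and between 429 and 475 FPKM in DL, and it was highest in NL 1 and NL 2. The cytosolic aconitase aco-1, a homolog of the iron regulatory protein of mammals, went the other way in these libraries. It measured 136, 155, 219.9 and 247 FPKM in NL and 212, 169.5, 200.05 and 222 FPKM in DL, so NL 1 and NL 2 were its lowest libraries. The share of aco-1 in the aconitase sum was 21.1% in NL 1 and in NL 2 and 26.3% to 35.8% in the other 6 libraries.

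Among the isocitrate dehydrogenases, idh-2, which encodes the NADP-dependent enzyme of mitochondria (WBGene00007942, chromosome X, 11216000 to 11218150), measured 53.4, 60.8, 59.8 and 61.8 FPKM in NL. In DL it stood at 64.97, 73.5, 68.9 and 68.4 FPKM. All 4 DL libraries lay above all 4 NL libraries, by a margin of a few FPKM. The log2 change was 0.22 ± 0.11 (SE, limma adjusted p = 0.307), with 0.28, 0.27, 0.20 and 0.15 in batches 1 to 4. The NADP-dependent enzyme of the cytosol, idh-1, lay at 410 to 433 FPKM in NL and 330 to 461 FPKM in DL. The alpha subunit of the NAD-dependent enzyme of the cycle, idha-1, lay at 202 to 314 FPKM in NL and 183 to 267 FPKM in DL, and was highest in NL 1 and NL 2.

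The remaining steps overlapped between the groups. Oxoglutarate dehydrogenase, ogdh-1, lay between 165 and 208 FPKM and fumarase, fum-1, between 251 and 314 FPKM. Malate dehydrogenase, which closes the cycle, lay between 616 and 931 FPKM for the cytosolic mdh-1 and between 512 and 864 FPKM for the mitochondrial mdh-2. Adjusted limma p-values of these 4 genes were 0.845 to 0.972.

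Across the set, the highest library was DL 3 or NL 2 for 10 genes each, and the lowest was DL 2 for 12 and NL 3 for 9. NL 1 and NL 2 were the highest pair for 12 of the 35 genes (34.3%), where this held for 15% of all tested genes. The same pair was highest in the muscle sum, ges-1, ifb-2 and the neuronal markers egl-3 and unc-104. The pair was not highest for tni-1 and mup-2 (muscle), elt-2 and act-5 (intestine), unc-13, rab-3 and snb-1 (neurons), or any hypodermal marker. They were the lowest pair for 3 of the 35, hxk-1, gpi-1 and aco-1 (8.57%), against 12.9% of all tested genes. The 12 were hxk-3, gpd-3, ipgm-1, pck-1, pck-2, pdha-1, cts-1, aco-2, idha-1, ogdh-1, mdh-1 and icl-1. Of the 12 pairs within a group, NL 1 and NL 2 were the most alike, with a chi-square per gene of 8.57 on recovered reads. It was 25.2 for DL 3 with DL 4 and 62.5 to 125 for the other 10. NL 1 and NL 2 thus differed by more than the sampling noise of reads and were kept as separate libraries. This does not show that they stem from separate cultures, which the labels do not state. The counts of genes above describe libraries of 1 group and were given no test.

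**Figure D5:**
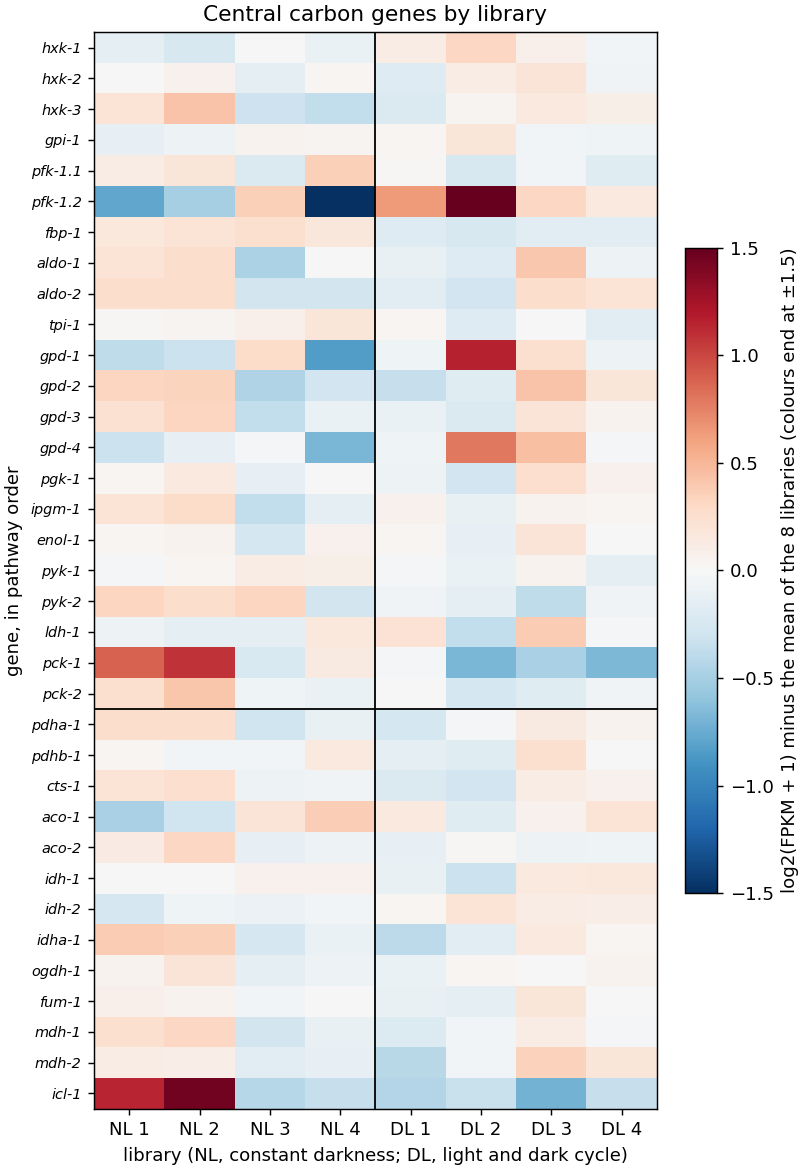
Log2(FPKM + 1) minus the mean of the 8 libraries (colour, ending at ±1.5) for the 35 genes in pathway order (y axis) in each library (x axis), with a vertical line between NL and DL and a horizontal line between pck-2 and pdha-1. The strongest colours are icl-1 and pck-1 in NL 1 and NL 2, and pfk-1.2 and gpd-1 in NL 4 and DL 2.

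Other genes of the same pathways gave a like picture, with 0 called by limma in each list. Of 8 genes for the entry of pyruvate into mitochondria, 0 had an unadjusted p under 0.05 (median log2 change 0.11). Among them, pdhk-2 and pyc-1 were highest in NL 1 and NL 2, mpc-2 was lowest there, and the others were neither. Pyruvate carboxylase, pyc-1, which makes oxaloacetate from pyruvate, measured 246, 303, 140.2 and 162 FPKM in NL and 176, 181, 127 and 141 FPKM in DL (limma adjusted p = 0.432), again highest in NL 1 and NL 2. Of 15 other citric acid cycle and malic enzyme genes 1 had an unadjusted p under 0.05 (median -0.11). This was sdha-2, a gene for the flavoprotein subunit of succinate dehydrogenase, at 24.3, 34.1, 31.7 and 22.1 FPKM in NL and 36.3, 59.5, 39.9 and 44.3 FPKM in DL (log2 change 0.66 ± 0.20 SE, limma adjusted p = 0.115). Its groups did not overlap, as for 4.44% of all tested genes in the higher direction. Like the sperm and oocyte sums, sdha-2 was lowest in NL 4 and highest in DL 2. Unlike them, it was higher in NL 2 (34.1 FPKM) than in NL 3 (31.7 FPKM). The part of germline RNA in sdha-2 was not tested.

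Of 4 measured pentose phosphate genes, which branch from glucose-6-phosphate, 0 had an unadjusted p under 0.05 (median 0.19), and all 4 were lowest in NL 1 and NL 2. Of 6 measured glycogen genes 3 had one, gyg-2 higher and pgm-1 and pygl-1 lower in DL (median -0.21), where 20.6% of all tested genes had one. The level of gyg-2, a glycogenin gene, was 6.26, 7.84, 13.9 and 2.91 FPKM in NL and 10.9, 43.5, 17.6 and 11.6 FPKM in DL. It too was lowest in NL 4 and highest in DL 2, with NL 3 the highest NL library, as the sperm and oocyte sums were. The phosphoglucomutase gene pgm-1, which links glycogen to glycolysis, was 170.8 ± 21.6 FPKM in NL and 126 ± 12.7 FPKM in DL (SD, n = 4 each), with a limma adjusted p of 0.132 and no overlap. Of 7 measured genes for regulators, 3 had an unadjusted p under 0.05, all lower in DL (median -0.18), where 8.24% of all tested genes had one in that direction. The hypoxia factor gene hif-1 was 124 ± 8.57 and 87.8 ± 3.83 FPKM (limma adjusted p = 0.0893), the insulin pathway factor daf-16 had an adjusted p of 0.0991, and aak-2, a catalytic subunit of the energy sensor AMPK, was 51.3 ± 14.03 and 31.9 ± 2.42 FPKM (adjusted p = 0.116). Without NL 3 limma called these 3 (adjusted p = 0.0308, 0.0456 and 0.0308), where it called 10.9% of all tested genes. Without both NL 3 and DL 2 it called 0 of these 3, against 10.4% of all tested genes. For each of them, every DL library lay below every NL library, as for 4.8% of all tested genes. NL 1 and NL 2 were the highest pair for daf-16, aak-2 and pgm-1, but not for hif-1 or pygl-1.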

How the data were processed

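The authors deposited FPKM values, 1 column per library, for 47087 loci. HISAT2, HTSeq and the build WBcel235 are named per the submitters' processing notes. Their versions, the annotation, the strand setting and any filter were not given in the sources used here. Symbols, positions and exon lengths came from Ensembl release 115 (WBcel235), which matched 46924 loci. With these lengths, 22881 of 22985 expressed genes (99.5%) gave whole reads in all libraries within 0.05 read. The library total that the FPKM values imply was 0.938 to 1.16 times these reads, a scaling the sources do not describe.

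Values were tested as log2(FPKM + 1), which understates changes of low genes, with limma 3.58.1 in R 4.3.3 (intensity trend, two-sided), for genes averaging at least 1 FPKM. All 35 members passed this filter, with at least 297 reads per library except for pfk-1.2. A log2 change and its test are printed for the 9 members with an unadjusted p under 0.1, a rule chosen after the values were seen. The members and lists were chosen with earlier results of these data known. Named genes were all members and, of each other list, at most the 3 with the smallest p. Libraries of the same number share a labelled batch, which pairs them. Deviations from the group means correlated at -0.00718, -0.188, -0.318 and 0.19 within the 4 pairs. The highest correlation, 0.586, crossed the batches, between NL 3 and DL 2. Not matched by symbol, and not analysed here, were pgdh-1, rpe-1, gbe-1 and fgt-1. Tables were made in Python 3.11.15 with numpy 2.4.6 and pandas 2.3.3, and figures with matplotlib 3.10.9. The limma step was tested on simulated data with 200 changed genes. Floors cover counting error only.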

Additional observations from a re-analysis of the deposited data

Results flagged for a closer look

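In 94 groups of 4 libraries (47 genes in 2 groups), 4 held 1 library far from the other 3 by Dixon's test, where chance flags about 1 in 20. The aldolase gene aldo-1 stood at 376 FPKM in DL 3, against 247 to 269 FPKM in the other DL libraries. Enolase, enol-1, stood at 694 FPKM in NL 3, against 848 to 872 FPKM. Pyruvate kinase pyk-2 stood at 38.0 FPKM in NL 4, against 55.5 to 57.8 FPKM. The gene daf-16 stood at 42.9 FPKM in DL 1, against 33.8 to 34.7 FPKM.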

How the results depend on the processing

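Over all genes limma called 101, against 33 with no filter on low values, 216 with quantile normalization, 25 with the batch as a replicate block, 9 to 1561 without 1 library (1561 without NL 3) and 1493 without NL 3 and DL 2. Of the 35 members limma called 0, with 0 to 2 without 1 library and 1 without NL 3 and DL 2, all from glycolysis and gluconeogenesis. With the block it called 0 members, and it changed no other call of a member or of a named gene. The median log2 change of the glycolysis and gluconeogenesis members was 0.013, but -0.0426 with centring on the median gene, -0.0881 to 0.0672 without 1 library and -0.0563 without NL 3 and DL 2. Of the regulators 0 to 3 were called without 1 library, and 0 without NL 3 and DL 2. Of the 35 members, 17 kept their sign in all 16 alternatives and 18, none with a change over 0.12 in size, did not. The cause of these shifts was not tested. Depth limits only pfk-1.2, which had 2 reads in NL 4.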

Other observations

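Ratios of FPKM within a library do not depend on its scaling. At the branch of isocitrate between the shunt and the cycle, icl-1 stood at 5.52, 6.93, 2.89 and 2.75 times idha-1 in NL 1 to NL 4 and at 3.16, 2.90, 1.79 and 2.51 times in DL 1 to DL 4. Against citrate synthase, icl-1 stood at 1.28, 1.53, 0.527 and 0.546 times cts-1 in NL and at 0.573, 0.648, 0.379 and 0.506 times in DL. At the opposed steps between phosphoenolpyruvate and pyruvate, pck-1 stood at 7.82, 8.62, 3.28 and 4.27 times pyk-1 in NL and at 4.13, 2.77, 2.85 and 2.84 times in DL. At the opposed steps of fructose phosphate, fbp-1 stood at 3.46, 3.40, 4.61 and 2.94 times pfk-1.1 in NL and at 2.88, 3.37, 3.11 and 3.37 times in DL. In the first 3 ratios NL 1 and NL 2 were highest. The DL range held NL 3 and NL 4 in both ratios of icl-1, but NL 3 alone in the ratio of pck-1, where NL 4 lay above all DL libraries. In the ratio of fbp-1 the groups overlapped, with NL 3 highest. The ratio of icl-1 to idh-1 was also highest in NL 1 (4.17) and NL 2 (5.22). The pair was not highest for pyc-1, at 0.933, 1.15, 0.789 and 0.799 times pdha-1 in NL. There pyc-1 stood at 0.964, 0.841, 0.524 and 0.620 times pdha-1 in DL, with DL 1 above NL 1.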
